A study of Mus musculus with 16 samples.

Results

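The genes described here are 9 apolipoprotein genes (Apoa1, Apoa2, Apoa4, Apoa5, Apob, Apoc1, Apoc2, Apoc3 and Apoe) and Mttp, the gene of the microsomal triglyceride transfer protein, in mouse liver. They were chosen by name, and all 10 were found among the 24411 gene symbols of the deposited tables; all 10 passed the low-count filter, as did 12901 genes in all. The study measured polyadenylated liver RNA in 16 libraries, 4 in each of 4 groups. The PF group holds pair-fed control mice given vehicle. The EtOH group holds mice on an ethanol diet by the NIAAA model, which joins chronic feeding with a binge, also given vehicle. The EtOH+MBV group had the same ethanol diet with matrix-bound nanovesicles (MBV), small vesicles that are held in the extracellular matrix of tissues. The PF+MBV group was pair-fed and given MBV. The sources used here name no strain, age or sex, and no dose, source or route of the MBV. The 4 libraries of a group are labelled as repeats, without a word on whether each is another mouse; a p-value here covers the spread among these libraries, which may be technical.

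The liver exports triglyceride in very low density lipoprotein (VLDL). A VLDL particle is built on a single apoB molecule, onto which the transfer protein encoded by Mttp loads lipid in the endoplasmic reticulum; apoB that receives no lipid is degraded. The small exchangeable apolipoproteins ride on the surface of the particles and set their fate in plasma: apoC2 is the obligatory cofactor of lipoprotein lipase, apoA5 promotes lipolysis, apoC3 and apoC1 slow lipolysis and hepatic uptake, and apoE is the ligand for hepatic receptors. ApoA1 and apoA2 are the main structural proteins of high density lipoprotein (HDL), and apoA4, abundant in the intestine, is also made by mouse liver, where fasting and fat storage are known to raise it.

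Apoa1 (chr9:46228580-46230466, plus strand), Apoc3 (chr9:46232933-46235636, minus strand), Apoa4 (chr9:46240696-46243459, plus strand) and Apoa5 (chr9:46268633-46271919, plus strand) lie together within 43.3 kb (GENCODE M21 on GRCm38, the assembly that mm10 names). Apoc2 (chr7:19671579-19677941), Apoc1 (chr7:19689481-19692660) and Apoe (chr7:19696109-19699188) lie with Apoc4 within 27.6 kb on the minus strand of chromosome 7. Apoa2 (chr1:171225054-171226379, plus strand), Apob (chr12:7977648-8016835, plus strand) and Mttp (chr3:138089854-138144968, minus strand) lie alone. Of 3 neighbours on chromosome 9, Apoa4 and Apoa5 were called in EtOH against PF and Apoa1 was not. Apob had the scaled level that varied least of the 10 genes. The sequences before the starts of these genes read as follows from 5′ to 3′ (RefSeq, GRCm38.p6). They cover up to 250 bases before the RefSeq start, without bases that GENCODE places in an exon: chr9:46228380-46228579, chr9:46240594-46240695, chr9:46268383-46268632 and chr12:7977427-7977647. Capitals mark matches on either strand to the TATA box (TATAAA), the HNF4 type site (CAAAGNNCA), the forkhead site (TGTTTAC or TATTTAC), the C/EBP site (TTGCNNAA) and the E-box (CACGTG).
Apoa1: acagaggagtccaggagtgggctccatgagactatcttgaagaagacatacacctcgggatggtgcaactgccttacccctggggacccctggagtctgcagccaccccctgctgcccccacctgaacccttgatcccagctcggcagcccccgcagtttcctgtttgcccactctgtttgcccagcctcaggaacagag
Apoa4: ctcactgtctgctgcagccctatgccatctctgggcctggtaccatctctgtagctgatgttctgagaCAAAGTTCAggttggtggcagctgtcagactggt
Apoa5: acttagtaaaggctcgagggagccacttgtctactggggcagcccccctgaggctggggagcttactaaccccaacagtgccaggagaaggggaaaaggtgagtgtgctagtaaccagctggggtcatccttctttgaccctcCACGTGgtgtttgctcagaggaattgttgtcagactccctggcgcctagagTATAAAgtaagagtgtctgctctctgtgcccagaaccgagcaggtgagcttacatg
Apob: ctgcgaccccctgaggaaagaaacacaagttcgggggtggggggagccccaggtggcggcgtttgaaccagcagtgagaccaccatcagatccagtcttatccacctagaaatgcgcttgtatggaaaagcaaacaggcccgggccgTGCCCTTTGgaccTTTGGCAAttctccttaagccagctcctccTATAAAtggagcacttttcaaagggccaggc
The Apoa4 window held 1 HNF4 type match, CAAAGTTCA, beginning at position -182 from the RefSeq start. The Apoa5 window held a TATA box at -56 and an E-box at -107. The Apob window held a TATA box at -60, an HNF4 type match at -103 and a C/EBP match at -90 that overlaps none of the others. The Apoa1 window held none of these letters. Over the 250 bases before all 32851 listed starts, a TATA box was found in 12.4%, the HNF4 type letters in 5.49%, the forkhead letters in 5.76%, the C/EBP letters in 9.56% and the E-box in 6.02%. The windows of Apoa4, Apoa1 and Apob are shorter, at 102, 200 and 221 bases, since exon bases nearest the start were left out. Their matches are therefore not directly comparable with these shares. A match is a run of letters and was not tested as a binding site. Promoter entries were found for 8 of the 10 genes; Apoc1 and Apoc3 were not matched.

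Reads counted to genes numbered from 15271344 to 20493181 per library. The hepatocyte markers were high throughout, with Alb between 62533 and 98068 CPM (counts scaled to the library's total and by TMM, edgeR's trimmed mean of M-values). Of the 6 small intestine markers, Cdx2, Sis, Cdh17, Lct and Vil1 reached at most 5 reads in any library; Fabp2, which the liver also makes, averaged 106 CPM in PF and 20.6 CPM in EtOH. A pair of libraries stood apart from their groups over all genes. EtOH 1 lay at -74.2 on the second principal component (15.6% of variance), where EtOH 2 to 4 lay at -17.8 to 11.6, and its TMM factor was 1.27 where theirs were 0.863 to 1.01. EtOH+MBV 1 lay at -0.3 on the first component (49.8% of variance), between the other EtOH+MBV libraries (41.2 to 49.6) and the PF libraries (-48.4 to -32.9). EtOH 1 also had the highest sums of the 10 Kupffer cell and macrophage markers (687 CPM, with 236 to 318 in EtOH 2 to 4) and of the 8 recruited monocyte markers (166 CPM, with 56.6 to 79.8). Results that rest on either library are given with and without it, except for the marker lists. The sum of the 12 hepatocyte markers was 144148 to 172554 CPM in EtOH+MBV and 104703 to 121473 in PF+MBV. There 7 of the 12 were called higher and 0 lower, beside 19.2% and 16.7% of all genes. The sum overlapped between EtOH (110253 to 186701) and PF (114036 to 151958). In that comparison 4 of the 12 were called higher and 0 lower, beside 20.4% and 19.5% of all genes. The sum of the 7 endothelial markers was 296 to 360.4 CPM in EtOH and 384 to 459 in PF. Of the 7, 5 were called lower and 1 higher, beside 19.5% and 20.4% of all genes. In EtOH against PF 5 of 8 stellate cell markers were called higher and 2 lower, beside 20.4% and 19.5% of all genes. Of 7 tested recruited monocyte markers, 3 were called higher and 1 lower there, beside the same shares. The recruited monocyte sum was 77.9 to 108 CPM in PF, and EtOH 1 was the only EtOH library above that range. Marker calls without EtOH 1 were not counted. The sum of the 5 cholangiocyte markers was 19.5 to 32.6 CPM in EtOH+MBV and 8.38 to 10.9 in PF+MBV. Of the 4 tested, 1 was called higher and 0 lower there, beside 19.2% and 16.7% of all genes. The log2 fold change was negative in 3 of these 4, so the higher sum is not shared by the list. The part of these markers in the results was not tested.

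The 10 genes took 3.45% to 3.94% of all reads counted to genes in the PF libraries, 3.12% to 3.43% in EtOH, 3.15% to 3.79% in EtOH+MBV and 4.09% to 4.40% in PF+MBV. In this share every EtOH library lay below every PF library, and every PF+MBV library lay above all others. After TMM scaling, which the levels below use, the summed CPM overlapped between EtOH (24649 to 38900) and PF (35207 to 40698), and between PF and PF+MBV (38890 to 41942). Per kilobase of exon, so that genes of different length can be compared, Apoa2 held rank 2, Apoe rank 3 and Apoa1 rank 4 of 12467 genes in PF, with levels of 8510 ± 370, 7644 ± 651 and 7273 ± 513 CPM per kilobase (SD, n = 4). Apoc1 followed at rank 20 (2519 ± 308), Apoc3 at rank 31 (1639 ± 260), Apoa5 at rank 88 (615 ± 98.9), Apoa4 at rank 112 (459 ± 229) and Apob at rank 135 (397 ± 16.8). Mttp held rank 520 (115 ± 11.5). In this order the libraries of Apoa2 and Apoe overlapped, as did those of Apoe and Apoa1, of Apoa5 and Apoa4 and of Apoa4 and Apob. Apoc2 cannot be placed in it: 646 of its 813 exon bases (79.5%) also lie in exons of Gm44805, a readthrough gene from Apoc4 into Apoc2. The tables list that gene as Apoc4-apoc2, at 0 reads in all 16 libraries, and STAR's gene counts leave out reads that fall in exons of more than 1 gene. Apoc2 had 25 to 175 reads per library. Whether the overlap lowered them was not tested, since the annotation the authors counted with is not known; with 167 bases unshared in these gene models, the counts are not read as its level. Apoa4 shares 1266 of its 1815 exon bases with 2 gene models that the tables do not list; the libraries carry no strand information (50.6% to 51.8% of stranded assignments on 1 strand), so antisense reads there would be counted with Apoa4.

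**Figure D1:**
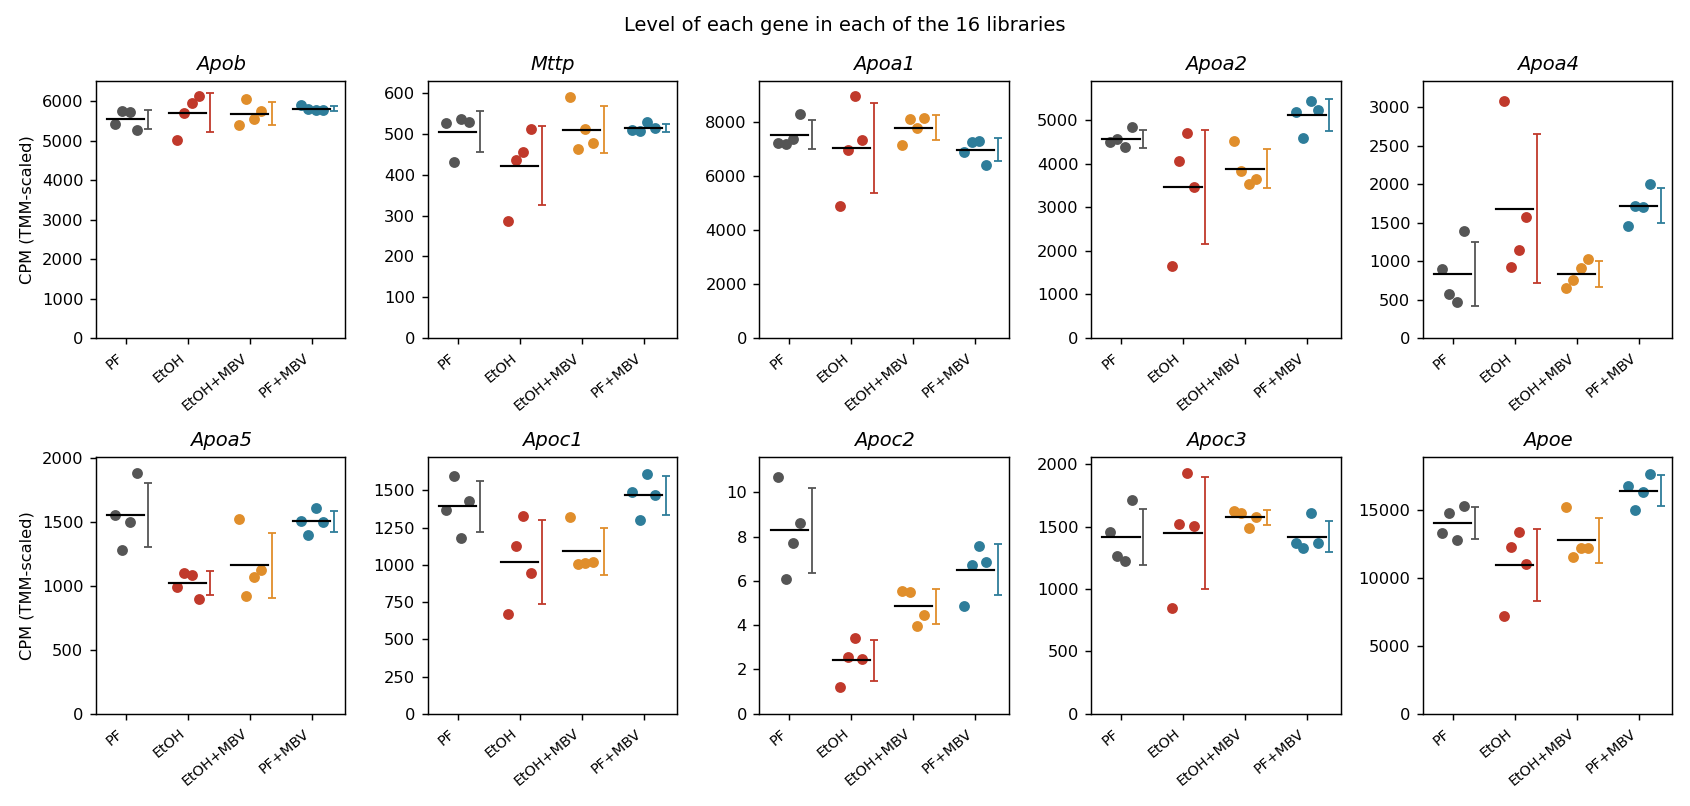
Level of each of the 10 genes in each of the 16 libraries, in TMM-scaled CPM on axes that start at 0, by group (PF grey, EtOH red, EtOH+MBV orange, PF+MBV blue); black lines are group means and the bars beside them 1 SD (n = 4). Apoa4 is high in every PF+MBV library and highest in EtOH 1, while EtOH 2 and EtOH 3 lie within the PF range. Apoc2 and Apoa5 are low in EtOH, and Apob stays between 5012 and 6135 CPM in every library.

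Ethanol was set against pair feeding without MBV (EtOH against PF) and with MBV (EtOH+MBV against PF+MBV), and MBV against vehicle within each diet. The fifth test, the interaction, asked whether the MBV effect differed between the diets. The comparisons share groups, so their values are set side by side and not counted as separate evidence. All used edgeR's quasi-likelihood test over the 12901 genes with Benjamini-Hochberg adjustment, and a gene was called at an adjusted p under 0.05. In EtOH against PF, 3 of the 10 genes were called, beside 39.8% of all genes: 1 higher, beside 20.4%, and 2 lower, beside 19.5%. In EtOH+MBV against EtOH 1 of 10 was called, beside 2.69%; in PF+MBV against PF 0 of 10, beside 1.78%; in EtOH+MBV against PF+MBV 1 of 10, beside 35.9% (0 higher, beside 19.2%, and 1 lower, beside 16.7%); and in the interaction 2 of 10, beside 4.11%. The libraries of the compared groups did not overlap for 2 of the 10 genes in EtOH against PF (Apoa5 and Apoc2; 32.3% of all genes), for 1 in EtOH+MBV against EtOH (Apoc2; 7.60%), for 2 in PF+MBV against PF (Apoa4 and Apob; 15.0%) and for 2 in EtOH+MBV against PF+MBV (Apoa2 and Apoa4; 39.0%). At an unadjusted p under 0.05, Apoa4 was the only one of the 10 to pass in PF+MBV against PF, and DESeq2 called it. The median log2 fold change over the 10 genes was -0.31, 0.16, 0.05, -0.37 and 0.07 in these 5 tests, beside 0.01, 0.01, 0.0, -0.01 and 0.0 over all genes. Without EtOH 1 the medians of the 10 genes were -0.14 in EtOH against PF, -0.02 in EtOH+MBV against EtOH and -0.09 in the interaction, so the last 2 changed sign.

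**Figure D2:**
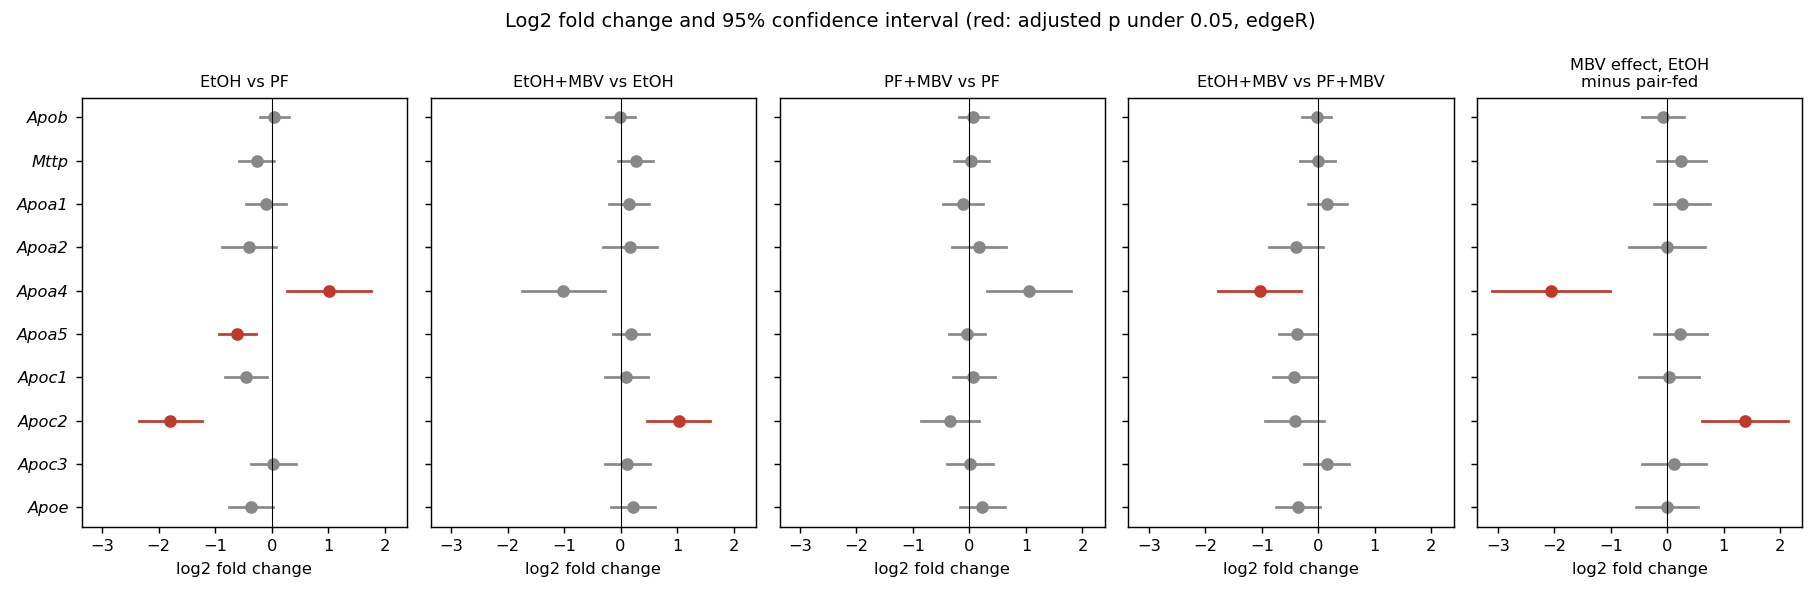
Log2 fold change (points) and 95% confidence interval (lines) of the 10 genes in the 4 comparisons and in the interaction; red marks an adjusted p under 0.05. Apoa4 lies at 1.02 in EtOH against PF, at -1.04 in EtOH+MBV against PF+MBV and at -2.06 in the interaction, while the intervals of Apob stay between -0.44 and 0.33 in all 5 panels.

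Apoa4 was higher in ethanol-fed than in pair-fed mice given vehicle, and lower in ethanol-fed than in pair-fed mice given MBV. In PF it measured 896, 569.6, 472 and 1393 CPM in replicates 1 to 4. In EtOH it measured 3082, 926, 1150 and 1578 CPM, in EtOH+MBV 648, 757, 913 and 1032 CPM, and in PF+MBV 1461, 1724, 1705 and 2007 CPM. EtOH 1 was the highest of all 16 libraries, PF and EtOH overlapped, and every PF+MBV library lay above every PF library and above every EtOH+MBV library. In order of their means the groups stood at 1724 ± 223 in PF+MBV, 1684 ± 971 in EtOH, 837 ± 169 in EtOH+MBV and 833 ± 415 in PF (SD, n = 4); the first and second, and likewise the last and the one before it, do not differ beyond their spread. Apoa4 rose 2.02-fold in EtOH against PF (log2 1.02 ± 0.35 SE, 95% interval 0.28 to 1.76, adjusted p = 0.0296). It was 2.06-fold lower in EtOH+MBV than in PF+MBV (log2 -1.04 ± 0.35, adjusted p = 0.0288). The MBV differences had opposite signs in the 2 diets and neither was called: log2 -1.01 in the ethanol-fed (adjusted p = 0.115) and 1.05 in the pair-fed (adjusted p = 0.129). The difference between them, the interaction, was called (log2 -2.06 ± 0.49, 95% interval -3.1 to -1.01, adjusted p = 0.0315). Fewer cells expressing a gene and less RNA per cell cannot be told apart in RNA from whole tissue.

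The rise of Apoa4 with ethanol rested on EtOH 1: without it the log2 fold change was 0.55 (adjusted p = 0.146), and without EtOH 1 and EtOH+MBV 1 it was 0.56 (adjusted p = 0.123). The call also ended when PF 1, PF 2 or PF 3 was left out (adjusted p = 0.0554, 0.0833 and 0.0894), in limma voom with group weights (0.0529) and in a fit of the 8 libraries alone (0.101). The interaction stood without EtOH 1 (log2 -1.58, adjusted p = 0.0382) and without EtOH 1 and EtOH+MBV 1 together (log2 -1.48, adjusted p = 0.039). It fell short of the threshold in 8 of 16 leave-one-out fits, with adjusted p up to 0.0667 and log2 values from -2.41 to -1.58 over all 16. The difference between EtOH+MBV and PF+MBV kept a log2 value of -1.16 to -0.94 in its 8 leave-one-out fits, of which 6 had an adjusted p of 0.0532 to 0.0726. In PF+MBV against PF, DESeq2 (adjusted p = 0.0409), limma voom (0.0101) and the fit of the 8 libraries alone (0.0385) called the rise that the main test did not. In EtOH+MBV against EtOH, DESeq2 called the lower level (adjusted p = 0.0433), and without EtOH 1 the log2 value was -0.53. Macrophage and monocyte marker sums were highest in EtOH 1, where Apoa4 was also highest. The macrophage sum was 357 to 434 CPM in PF+MBV and 337 to 459 CPM in PF. The part of these markers in the Apoa4 values was not tested.

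**Figure D3:**
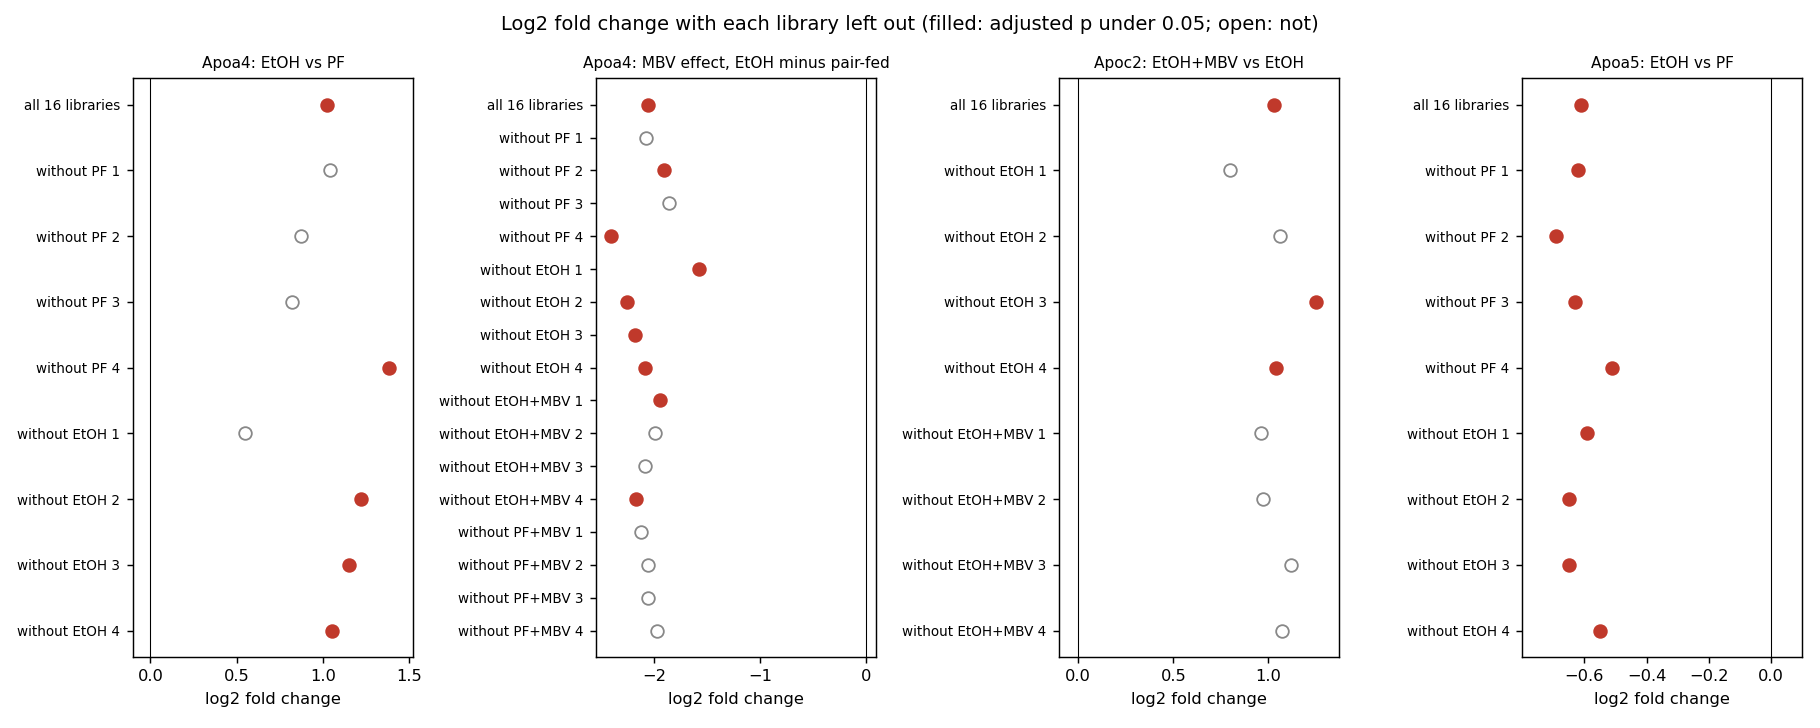
Log2 fold change with all 16 libraries and with each library of the comparison left out in turn, for Apoa4 in EtOH against PF and in the interaction, Apoc2 in EtOH+MBV against EtOH, and Apoa5 in EtOH against PF; filled red points have an adjusted p under 0.05 and open points do not. The Apoa4 value falls to 0.55 without EtOH 1, whereas Apoa5 stays between -0.69 and -0.51 and is called in all 8 leave-one-out fits.

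Beside Apoa4 on chromosome 9, Apoa1 and Apoc3 stayed close to their PF levels. The ratio of Apoa4 to Apoa1 in CPM ran from 0.0640 to 0.168 in PF, 0.129 to 0.632 in EtOH, 0.0908 to 0.127 in EtOH+MBV and 0.212 to 0.313 in PF+MBV. Apoa1, the main HDL protein, averaged 7528 ± 531 CPM in PF, 7036 ± 1673 in EtOH, 7795 ± 469 in EtOH+MBV and 6973 ± 420.0 in PF+MBV (SD, n = 4); its lowest and highest libraries, 4880 and 8947 CPM, were EtOH 1 and EtOH 3. Apoc3, transcribed toward Apoa1 from the opposite strand, averaged 1415 ± 225 CPM in PF, 1449 ± 448 in EtOH, 1573 ± 60.0 in EtOH+MBV and 1420 ± 126 in PF+MBV (SD, n = 4). Neither Apoa1 nor Apoc3 was called in any of the 5 tests: in EtOH against PF the 95% intervals of the log2 fold change ran from -0.45 to 0.25 for Apoa1 and from -0.37 to 0.44 for Apoc3.

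Apoa5, which promotes lipoprotein lipase action, fell in EtOH. In PF it measured 1551, 1277, 1496 and 1880 CPM, and in EtOH 988, 1102, 1084 and 897 CPM. In EtOH+MBV it measured 1521, 921, 1067 and 1123 CPM, and in PF+MBV 1502, 1397, 1606 and 1499 CPM. No EtOH library reached the lowest PF library, and in EtOH+MBV replicate 1 alone lay in the range of the pair-fed libraries. The EtOH mean was 1.52-fold lower than that of PF (1018 ± 94.8 against 1551 ± 249 CPM, SD, n = 4; log2 -0.61 ± 0.16 SE, adjusted p = 0.00575), and this call held in all 8 leave-one-out fits, with adjusted p from 0.0039 to 0.0222. Between EtOH+MBV and PF+MBV the log2 fold change was -0.37 ± 0.15 (adjusted p = 0.0689); without EtOH+MBV 1 it was -0.53 (adjusted p = 0.00747). Apoa5 differed little between MBV and vehicle, with log2 values of 0.19 in the ethanol-fed (95% interval -0.14 to 0.51) and -0.05 in the pair-fed (-0.37 to 0.28). The ratio of Apoa4 to Apoa5 in CPM was 0.520 ± 0.182 in PF, 1.15 ± 0.165 in PF+MBV, 1.70 ± 1.03 in EtOH and 0.756 ± 0.224 in EtOH+MBV (SD, n = 4, with no test).

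Apoc2, the cofactor of lipoprotein lipase, was lowest in EtOH. From the few reads that could be assigned to it, Apoc2 measured 10.7, 6.08, 7.73 and 8.64 CPM in PF and 1.21, 2.56, 3.42 and 2.45 CPM in EtOH. It measured 5.54, 5.49, 3.95 and 4.46 CPM in EtOH+MBV and 4.88, 6.71, 7.60 and 6.88 CPM in PF+MBV. The EtOH libraries lay below all others, with no overlap with PF or with EtOH+MBV; EtOH+MBV and PF+MBV overlapped. Apoc2 fell 3.47-fold in EtOH against PF (log2 -1.79 ± 0.26 SE, adjusted p = 7.64e-05), a call that every alternative and all 8 leave-one-out fits kept, with log2 values from -2.02 to -1.56 in the latter. In EtOH+MBV it was 2.04-fold higher than in EtOH (log2 1.03 ± 0.26, adjusted p = 0.0477), and the interaction was 1.37 ± 0.36 (adjusted p = 0.0409). Both lie close to the threshold. The first was lost in 6 of 8 leave-one-out fits (adjusted p up to 0.106; 0.104 without EtOH 1), with the replicate block (0.0751), in limma voom (0.188) and in the fit of 8 libraries alone (0.255). The second was lost in 12 of 16 leave-one-out fits (adjusted p up to 0.0887), with the replicate block (0.0614) and in limma voom (0.0571), and had an adjusted p of 0.048 without EtOH 1 and EtOH+MBV 1. Whether reads of the shared exons changed in the same way was not tested. Apoc4, the neighbour that shares 22.1% of its exon bases with the same readthrough gene, fell from 128 ± 15.3 CPM in PF to 86.1 ± 18.3 CPM in EtOH (log2 -0.57 ± 0.15, adjusted p = 0.00717).

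Apob, the structural protein of VLDL, varied least among the 10 genes after TMM scaling. Its group means then ran from 5533 ± 234 CPM in PF to 5811 ± 55.5 CPM in PF+MBV (SD, n = 4), a ratio of 1.05. With library totals in place of TMM they ran from 5361 CPM in EtOH+MBV to 6060 CPM in PF+MBV. The means of Apoc3 (1407 to 1487 CPM) and Apoa1 (7021 to 7493 CPM) then lay closer together. After TMM the lowest and highest of the 16 libraries for Apob, EtOH 1 and EtOH 4, held 5012 and 6135 CPM. The place of EtOH 1 depends on the scaling, since its TMM factor (1.27) was the highest of the 16. In EtOH against PF the log2 fold change of Apob was 0.04 with a 95% interval of -0.21 to 0.3. In EtOH+MBV against EtOH it was -0.01 (-0.26 to 0.25). The PF+MBV libraries, at 5771 to 5891 CPM, all lay above the PF libraries, at 5264 to 5740 CPM, and the difference was not called (log2 0.07, adjusted p = 0.828). Mttp, whose product lipidates apoB, measured 527, 431, 536 and 530.1 CPM in PF and 288, 436, 457 and 512 CPM in EtOH. It measured 591, 465, 512 and 478 CPM in EtOH+MBV and 509, 509, 531 and 514 CPM in PF+MBV. EtOH 1 was the lowest library and EtOH+MBV 1 the highest, and the vehicle groups overlapped. Its log2 fold change in EtOH against PF was -0.26 ± 0.15 (adjusted p = 0.174), and -0.1 (adjusted p = 0.408) without EtOH 1 and EtOH+MBV 1.

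Apoc1, Apoe and Apoa2 shared a pattern of lower values under ethanol that the main test did not call. Apoc1, an inhibitor of lipoprotein uptake, measured 1371, 1599, 1184 and 1427 CPM in PF, 668, 1129, 1330.0 and 943 in EtOH, 1325, 1006, 1010 and 1019 in EtOH+MBV and 1490, 1300, 1613 and 1467 in PF+MBV. Its log2 fold change was -0.46 ± 0.18 in EtOH against PF (adjusted p = 0.0522) and -0.43 ± 0.18 in EtOH+MBV against PF+MBV (adjusted p = 0.0704). Apoe, the receptor ligand and the most abundant of the 10 by reads, measured 13274, 14791, 12814 and 15322 CPM in PF, 7228, 12244, 13349 and 11043 in EtOH, 15195, 11498, 12218 and 12166 in EtOH+MBV and 16736, 14964, 16304 and 17662 in PF+MBV. In each of these genes EtOH 1 was the lowest library of the 16 and EtOH+MBV 1 the highest of its group. Apoe had log2 fold changes of -0.36 ± 0.19 with ethanol under vehicle and under MBV alike (adjusted p = 0.135 and 0.137). Apoa2, the second HDL protein, measured 4372 to 4842 CPM in PF, 1659, 4054, 4696 and 3469 in EtOH, 4521, 3843, 3540 and 3646 in EtOH+MBV and 4580 to 5437 in PF+MBV, with every EtOH+MBV library below every PF+MBV library.

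These 3 genes turned on the libraries that stood apart. Without EtOH 1 and EtOH+MBV 1, an alternative chosen after seeing the data, EtOH+MBV was lower than PF+MBV by log2 -0.52 for Apoc1 (adjusted p = 0.00271), -0.44 for Apoe (0.00278), -0.46 for Apoa2 (0.00256) and -0.52 for Apoa5 (0.00315), so that with Apoa4 5 of the 10 genes were called, all lower, beside 48.2% of all genes in that fit. In EtOH against PF the same step moved the values the other way, to -0.29 for Apoc1 (adjusted p = 0.0729), -0.19 for Apoe (0.155) and -0.16 for Apoa2 (0.264), and 2 of the 10 were called, beside 41.8% of all genes. The scaling mattered too. With library totals in place of TMM, 5 of the 10 genes were called in the ethanol comparison under vehicle, beside 35.4% of all genes, and also 5 in that under MBV, beside 32.0%. In the latter this scaling moves the median log2 fold change of all genes from -0.006 to -0.148 and the share of calls that are higher from 53.5% to 35.0%. In EtOH 1, 8 of the 10 genes had their lowest TMM-scaled value of the 16 libraries, and Apoa4 had its highest. Apoa5 was the exception, with its lowest value in EtOH 4. The TMM factor of EtOH 1 (1.27) was the highest of the 16 and lowers every scaled value there. By library totals the 10 genes summed to 31239 CPM in EtOH 1, where TMM gave 24649. Which genes stay lowest there without TMM was not examined.

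**Figure D4:**
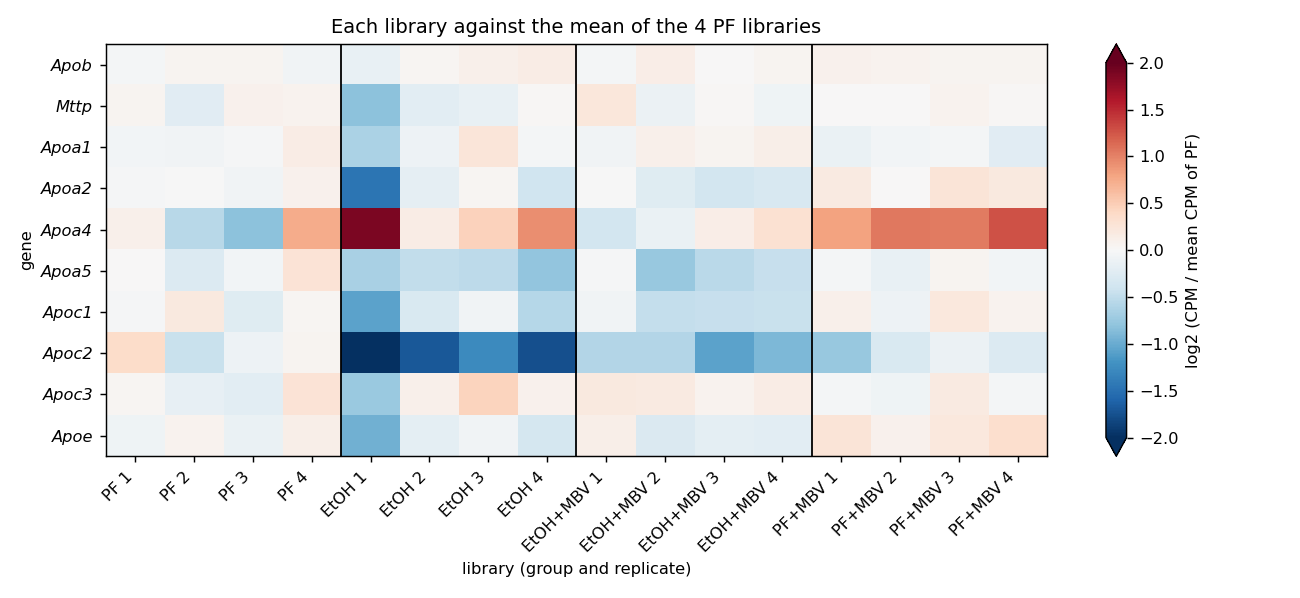
Colour gives the log2 of each library's TMM-scaled CPM over the mean CPM of the 4 PF libraries, red higher and blue lower. The 10 genes are in rows and the 16 libraries in columns. EtOH 1 is the lowest column in all rows but Apoa4 and Apoa5, EtOH+MBV 1 is paler than the other EtOH+MBV libraries in Apoc1 and Apoa5, and the Apoa4 row is red in all 4 PF+MBV libraries.

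Of 32 partners of apoB assembly and secretion, 13 rose and 3 fell in EtOH against PF, where 20.4% of all genes were called higher and 19.5% lower. With 1 library left out at a time, 9 to 13 were called higher and 3 lower. In limma voom and in the fit of the 8 libraries alone the numbers were 9 and 3. The median log2 fold change of the 32 was 0.22 beside 0.01 over all genes. Tm6sf2, an endoplasmic reticulum protein needed for VLDL lipidation, rose from 23.1 ± 4.44 to 59.5 ± 2.41 CPM (SD, n = 4; log2 1.36 ± 0.14 SE, adjusted p = 3.32e-06). Pla2g12b, which takes part in VLDL lipidation, rose by log2 0.6 (adjusted p = 9.81e-05), and P4hb, the disulfide isomerase subunit bound to the Mttp protein, by log2 0.52 (adjusted p = 0.00306). Vmp1, a lipid scramblase of the endoplasmic reticulum, rose by log2 0.97 (adjusted p = 0.000688). Cideb, which promotes VLDL lipidation, fell from 25.5 ± 6.42 to 14.2 ± 3.38 CPM (log2 -0.85, adjusted p = 0.00384); Sec23a, a coat protein of export vesicles, fell by log2 -0.62 (adjusted p = 0.00127). A1cf, a cofactor of Apob RNA editing, fell by log2 -0.58 (adjusted p = 0.00799). The calls of these 7 genes held in all 8 leave-one-out fits. In EtOH+MBV against PF+MBV 11 of the 32 rose and 3 fell (19.2% and 16.7% of all genes), with Tm6sf2 at 0.71 (adjusted p = 0.000882), P4hb at 0.39 (0.018) and Cideb at -0.64 (0.0209); with library totals in place of TMM 6 rose and 3 fell. Without EtOH+MBV 2, EtOH+MBV 3 or PF+MBV 1 the number higher was 7, and without EtOH 1 and EtOH+MBV 1 it was 16. In this comparison the call of P4hb was lost in 3 of 8 leave-one-out fits and that of Cideb in 4 (adjusted p up to 0.0559 and 0.0678). Sar1b, the small GTPase of the vesicles that carry VLDL precursors, was not called in any of the 5 tests.

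Apobec1, the enzyme that edits Apob RNA, was lower in EtOH+MBV than in EtOH (12.5 ± 2.31 against 19.9 ± 2.26 CPM; log2 -0.67 ± 0.15, adjusted p = 0.0335). That call was lost in 5 of 8 leave-one-out fits, with -0.59 (adjusted p = 0.0953) without EtOH 1. Pnpla3, a lipid droplet protein, was higher in PF+MBV than in PF (8.56 ± 2.86 against 1.64 ± 1.10 CPM; log2 2.39 ± 0.53, adjusted p = 0.033), a call lost in 7 of 8 leave-one-out fits at log2 values of 2.13 to 2.86. Pnpla3 also had an interaction of -3.76 ± 0.74 (adjusted p = 0.0187), called in all 16 leave-one-out fits, with means of 5.66 CPM in EtOH and 2.18 CPM in EtOH+MBV.

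**Figure D5:**
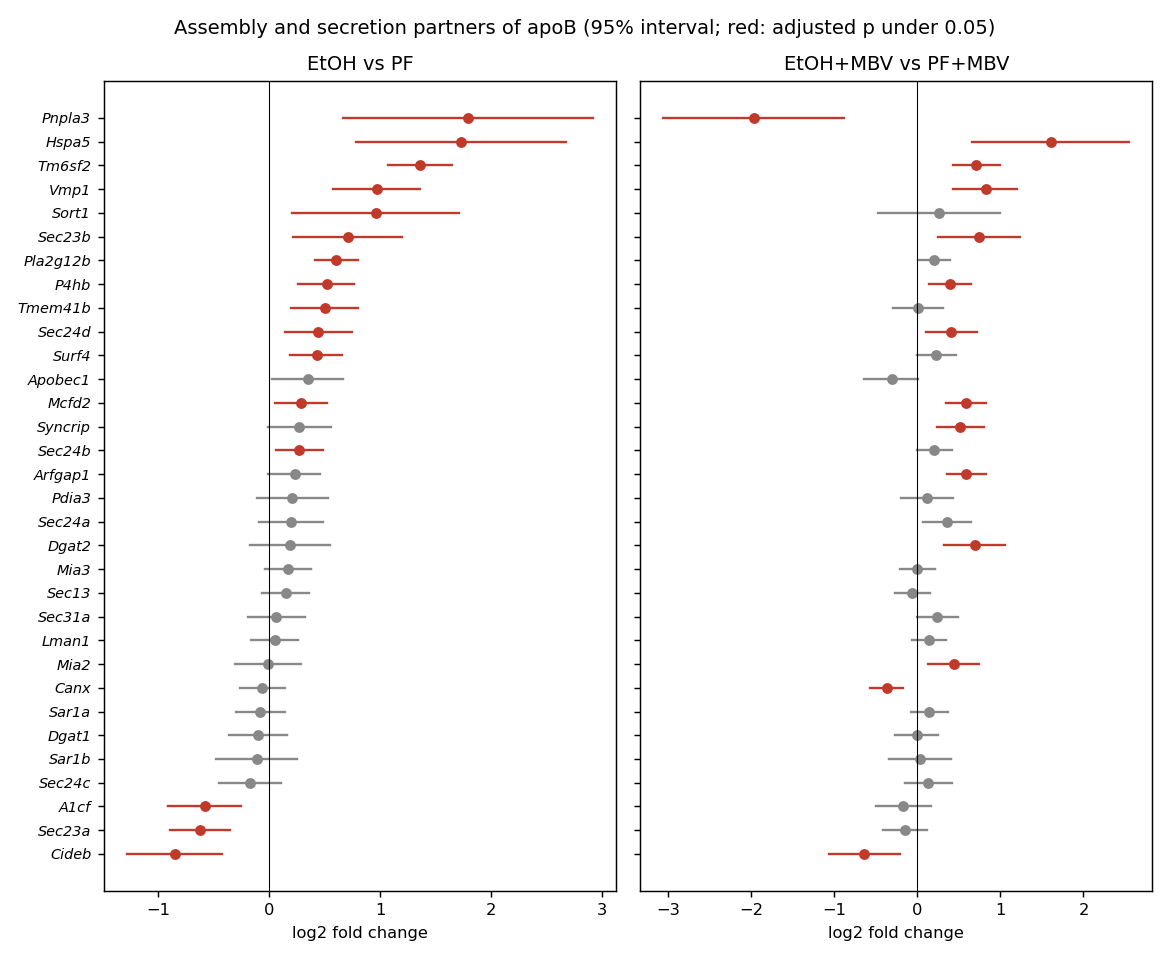
Log2 fold change (points) and 95% confidence interval (lines) of the 32 partners of apoB assembly and secretion in both ethanol comparisons, ordered by the value in EtOH against PF; red marks an adjusted p under 0.05. On the left 13 genes lie to the right of 0 and 3 to the left in red, with Cideb lowest at -0.85; on the right Pnpla3 lies at -1.97.

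Among 9 other tested apolipoprotein and HDL genes, 0 rose and 4 fell in EtOH against PF (20.4% and 19.5% of all genes): Apon by log2 -1.12 (adjusted p = 0.000502), Saa4 by -1.59 (0.00698), Apoc4 by -0.57 (0.00717) and Apof by -0.44 (0.00911). Apoh and Apom, which are made by hepatocytes and ride on lipoproteins, were not called in any test. Of 14 genes for plasma lipases and lipid transfer, 3 were called higher and 2 lower, a share near that of all genes (39.8%). Pltp, the phospholipid transfer protein, fell from 104 ± 29.7 to 14.8 ± 2.84 CPM (log2 -2.81 ± 0.2, adjusted p = 2.83e-07), and Lipg, endothelial lipase, by log2 -3.27 (adjusted p = 5.52e-05). The endothelial marker sum was also lower in EtOH, at 296 to 360.4 CPM beside 384 to 459 in PF, and its part in the Lipg value was not tested. Abca1, which loads lipid onto apoA1, rose by log2 0.86 (adjusted p = 0.00623). Lpl, the lipase that apoC2 activates, had a log2 value of 1.6 (adjusted p = 0.0386) that came from EtOH 1. It measured 91.3 CPM there, 8.32 to 13.8 CPM in EtOH 2 to 4 and 7.46 to 13.2 CPM in PF, and without EtOH 1 the log2 value was 0.11 (adjusted p = 0.799). Lcat and Lipc, both made by hepatocytes, were not called.

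Of 12 tested lipoprotein receptor genes, 3 rose and 2 fell in EtOH against PF, a share near that of all genes (39.8%). Vldlr, a receptor for triglyceride-rich particles, rose from 1.64 ± 0.618 to 16.9 ± 5.04 CPM (log2 3.36 ± 0.39, adjusted p = 1.05e-05), and Sdc1, a heparan sulfate proteoglycan that binds remnants, rose by log2 1.27 (adjusted p = 0.00025). Of 28 regulators of apolipoprotein genes, 3 rose and 12 fell in EtOH against PF, where 20.4% of all genes were called higher and 19.5% lower. Ppara, a fatty acid sensor, fell from 573 ± 102 to 155 ± 77.0 CPM (log2 -1.89, adjusted p = 0.000232), Cebpa by log2 -1.52 (1.16e-05) and Nr1h3, the liver X receptor alpha gene, by log2 -0.9 (6.12e-06). Hnf4a and Creb3l3, known activators of Apoa4, were not called in EtOH against PF (log2 0.15 and -0.09) or in PF+MBV against PF (log2 -0.24 and -0.27). In EtOH+MBV against PF+MBV, where Apoa4 was lower, Hnf4a was higher (log2 0.41, adjusted p = 0.0355), a call lost in 6 of 8 leave-one-out fits, and Creb3l3 was not called (log2 0.37, adjusted p = 0.146); their messenger level is not a measure of their activity. In the interaction 6 of the 28 were called higher and 1 lower, beside 4.11% of all genes in either direction. With library totals in place of TMM the numbers were 2 and 0. The number higher was 1 without PF 3, PF+MBV 2, PF+MBV 3 or PF+MBV 4, 2 without PF 1, PF 4 or EtOH+MBV 3, 3 without EtOH 2, EtOH+MBV 2 or PF+MBV 1, and 4 to 8 without any of the other 6.

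Across the 16 libraries, which share groups and the library EtOH 1, the log2 CPM of Apoa2 and Apoe had a Pearson r of 0.953, of Apoc1 and Apoe 0.940, of Apoa2 and Apoc1 0.930 and of the chromosome 9 neighbours Apoa1 and Apoc3 0.879. Apoa4 had a negative r with each of the other 9 genes, from -0.498 with Apoa1 to -0.061 with Apoa5. After the group means were subtracted, Apoa2 with Apoe stood at 0.941 and Apoa1 with Apoc3 at 0.902, while Apoa4 with Apoa5, on the same chromosome, stood at 0.068. Outside the 10, the gene most like Apoa2 was Ttr (r = 0.990), most like Apoa1 was Plg (0.933), most like Apoa5 was Cyp8b1 (0.926), most like Apoc1 was Uqcr11 (0.968), most like Apoe was Gatb (0.967), most like Apoc2 was Gne (0.942), most like Mttp was Mme (0.931), most like Apoc3 was Gstt1 (0.928), most like Apoa4 was Pitpna (0.862) and most like Apob was Ceacam1 (0.823). After subtraction of group means Apoc3 was most like Sar1b (0.976). These are descriptions over the same 16 libraries, with no test.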

How the data were processed

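Polyadenylated RNA of 16 mouse liver libraries was sequenced. Reads were trimmed with Trimmomatic and aligned with STAR to mm10, per the submitters' processing notes; the sources used here give neither versions nor annotation. The deposited files hold STAR's raw read counts per gene, whose unstranded column was used; the summary lines for unmapped, multimapping, unassigned and ambiguous reads were left out (ambiguous reads were 1.35% to 1.69%). Samples were grouped by their titles.

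Counts were analysed in R 4.3.3 with edgeR 4.0.16 (filterByExpr with a minimum count of 10, TMM scaling, quasi-likelihood test over all 4 groups, Benjamini-Hochberg adjustment, limit 0.05). Log2 CPM values, used for correlations, carry a prior count of 2. The procedure was run on simulated counts in which few genes changed and no library stood apart. That run cannot speak to calls that rest on EtOH 1 or EtOH+MBV 1. Alternatives used DESeq2 1.42.0, limma 3.58.1, other scalings, no filter, the libraries of a contrast alone, a replicate block and leaving out libraries. The 10 genes, the lists and the tests were chosen with earlier results of these data known. Beyond the 10 genes, the text names up to 6 genes per list and comparison with the smallest p-values, plus a few key members of each list whatever their values, and for likeness the genes with the highest correlation. Libraries held 15271344 to 20493181 counts; counting error is largest for the genes with few reads, such as Apoc2, Pnpla3 and Vldlr. Results for a few genes of the lists are not reported here.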

Additional observations from a re-analysis of the deposited data

Results flagged for a closer look

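In 40 sets of 4 libraries (10 genes in 4 groups) the library farthest from the others was compared with the range of its group, a check that chance passes in about 1 in 20 sets, and 3 passed. Apoc1 in EtOH+MBV had its highest value in EtOH+MBV 1 (1325 CPM, against 1006 to 1019 in the other 3), with a gap of 0.959 of the range. Mttp in PF had its lowest value in PF 2 (430.6 CPM, against 527 to 536), with a gap of 0.914. Apoc3 in PF+MBV had its highest value in PF+MBV 3 (1606 CPM, against 1330 to 1372), with a gap of 0.851. The difference of the MBV effect between the diets passed edgeR's quasi-likelihood test for Apoa4 (log2 -2.06, adjusted p = 0.0315) and for Apoc2 (log2 1.37, adjusted p = 0.0409).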

How the results depend on the processing

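Of 910 values of the 10 genes under the alternatives, 836 kept their side of the threshold, 45 lost a call and 29 gained one. The sign changed in 39, of which 0 were called with all libraries or under the alternative. Genes called in EtOH+MBV against EtOH (347) were 196 with library totals without TMM, 905 with DESeq2, 1 with limma voom, 0 in the 8 libraries alone (1679 at an unadjusted p under 0.05), 205 with the replicate block and 180 without EtOH 1 and EtOH+MBV 1, a choice made after seeing the data. In PF+MBV against PF (230) they were 665 with DESeq2, 1264 with limma voom and 1119 in the 8 libraries alone. In the interaction (530) they were 349 without TMM, 1113 with DESeq2 and 887 without those 2 libraries. Of the 10 genes, 5 were called in EtOH against PF without TMM, beside 35.4% of all genes. In EtOH+MBV against EtOH 2 were called with DESeq2 and 0 with limma voom, in the 8 libraries alone, with the replicate block and without the 2 libraries. In PF+MBV against PF 1 was called with DESeq2, with limma voom and in the 8 libraries alone. In EtOH+MBV against PF+MBV 5 were called without TMM, 3 with DESeq2, 4 with limma voom, 4 in the 8 libraries alone and 5 without the 2 libraries. Over all 12901 genes 4132 were called there without TMM, 5022 with DESeq2 and 5642 with limma voom. In the 8 libraries alone 5497 of 12460 genes were called, and without the 2 libraries 6250 of 12961. In the interaction 1 was called with limma voom, beside 525 of all 12901 genes, and 1 with the replicate block, beside 514. The cause of these shifts was not tested.

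With 1 library left out at a time, genes called ranged from 4268 to 5069 in EtOH against PF, 8 to 1169 in EtOH+MBV against EtOH, 45 to 689 in PF+MBV against PF, 3412 to 5334 in EtOH+MBV against PF+MBV and 168 to 1088 in the interaction; of the 10 genes, 2 to 5, 0 to 1, 0 to 0, 0 to 2 and 0 to 2 were called. Without TMM the share of calls that were higher went from 46.1% to 30.6% in EtOH+MBV against EtOH and from 49.2% to 26.6% in the interaction. Same-numbered libraries had correlations of -0.124 to 0.17 between their deviations from group means, of which 3 of 24 passed 0.1. Libraries of other numbers had -0.243 to 0.327, of which 12 of 72 passed 0.1. The labels do not say whether the numbers pair the samples, and these values cannot decide it, since paired libraries need not deviate together. The replicate block changed 2 calls of the 10 genes.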
